A study of Homo sapiens with 20 samples.

Results

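The genes followed here are those for the histone deacetylases HDAC1, HDAC2, HDAC3, HDAC6 and HDAC8 and the sirtuins SIRT1, SIRT2, SIRT3 and SIRT6, which can take lactyl or acetyl groups off lysines. They were taken by symbol from the deposited tables, where all 9 were present among 26038 genes, and all 9 passed the filter on low counts in every comparison. The 20 libraries were polyA RNA-seq of MHCC-97H, a human hepatocellular carcinoma cell line, in 4 groups of 5. The series' text names histone lactylation, metastasis and ferroptosis after insufficient microwave ablation as its subject, and models the heat at the edge of an ablation with a water bath.

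NFS1 libraries came from cells labelled as an NFS1 knockdown, made with shRNA per the series' text, after 15 min at 47 °C and 24 h in an incubator. NC libraries came from cells labelled wild type after the same bath and incubation. R-47 libraries came from cells labelled wild type with the same 47 °C treatment, and R-37 libraries from wild-type cells held at 37 °C for 15 min and then 24 h in the incubator. Thus NFS1, NC and R-47 were all heated, and R-37 was the only group kept at 37 °C. The labels do not say what separates NC from R-47. They give no shRNA sequence and do not state whether the knockdown line was a clone or a pool. The labels do not tell whether the 5 libraries of a group are separate cultures, and p-values therefore reflect the spread among these libraries, part or all of which could be technical.

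Lysine lactylation is a mark built from lactate, and like acetylation it is removed by deacetylases. HDAC1, HDAC2, HDAC3 and HDAC8 are zinc-dependent class I enzymes; HDAC1 and HDAC2 work inside the SIN3, NuRD, CoREST and MiDAC complexes, and HDAC3 inside a corepressor complex with TBL1X, TBL1XR1 and GPS2. HDAC6 is a mostly cytosolic class II enzyme best known for deacetylating tubulin. Sirtuins use NAD as a cosubstrate: SIRT1 and SIRT6 are mainly nuclear, SIRT2 mainly cytosolic and SIRT3 mitochondrial. The libraries measure the mRNA of these enzymes, not their activity and not lactylation. In such bulk samples, fewer cells making an mRNA and less mRNA per cell cannot be told apart.

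Library totals ran between 32219946 and 39689939 counts. The NFS1 gene itself, a check on the labels, stood at 63.6 to 70.6 counts scaled to depth (CPM, per 1000000 counts) in the NFS1 libraries and 71.2 to 75.7 CPM in NC, a log2 difference of -0.11 that was not called (edgeR adjusted p = 0.11), so the group is written as the libraries labelled NFS1. Of 10 hepatocyte and liver cancer markers, 6 or 7 reached 1 CPM in a library of each group, while TTR and GPC3 were too low to be tested. In R-47 against R-37, ALB (log2 -1.46), SERPINA1 (-1.29), TF (-1.21) and APOB (-0.92) were called lower and HNF4A (0.28) higher. In NC against R-47, ALB (-2.57, at 0.85 CPM in NC), SERPINA1 (-1.45) and TF (-0.54) were called lower. APOB (1.00), HNF4A (0.81) and AFP (0.38) were called higher there. In NFS1 libraries against NC, TF (-0.91), APOB (-0.53), HNF4A (-0.50) and AFP (-0.47) were called lower. The 4 leukocyte markers summed to at most 1.80 CPM in any library. The 5 fibroblast markers summed to 34.02 to 56.2 CPM in NFS1 libraries, 22.2 to 27.7 in NC, 17.3 to 20.4 in R-47 and 17.7 to 26.3 in R-37; most of it was LUM, which was called higher in NFS1 libraries than in NC (log2 0.78, edgeR adjusted p = 0.0014). The 4 endothelium markers summed to 51.1 to 57.98 CPM in NFS1 libraries, 55.8 to 69.7 in NC, 69.97 to 79.1 in R-47 and 66.6 to 78.7 in R-37, with CDH5 at 0 in every NFS1, NC and R-47 library. Of these PECAM1 was lower (log2 -1.63) and KDR (1.19) and VWF (1.48, at 0.44 CPM in NC) higher in NC than in R-47. PECAM1 was also called lower in NFS1 libraries than in NC (-0.47). Of the fibroblast markers, COL1A1 (3.62, at 2.03 CPM in NC), DCN (2.27, at 3.05 CPM in NC) and LUM (0.20) were called higher in NC than in R-47. In R-47 against R-37, DCN (1.44, at 0.64 CPM in R-47) and PECAM1 (0.18) were called higher and KDR (-0.27) lower. The part of these genes in the eraser differences was not tested. The 5 heat shock markers summed to 385 to 2064 CPM in NFS1 libraries and 268 to 618 in NC. HSPA6 (log2 2.82), HSPA1B (2.26), HSPA1A (1.90) and DNAJB1 (0.67) were called higher in NFS1 libraries than in NC, though with overlapping libraries. HSPH1 was not called between these groups. The 5 markers summed to 344 to 434 CPM in R-47 and 655 to 743 in R-37. HSPA6 stood at 5.41 to 38.9 CPM in NC and 0.33 to 1.49 CPM in R-47 (log2 4.09). HSPA1A was also called higher in NC (0.70), DNAJB1 (-0.39) and HSPH1 (-0.17) lower, and HSPA1B was not called. In R-47 against R-37, HSPA1A (-1.24), HSPA1B (-0.89), DNAJB1 (-0.50) and HSPH1 (-1.06) were called lower, and HSPA6 was not called. Whether NC and R-47 were heated alike was not tested.

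The start regions of 5 of the genes are shown because these members differed most between groups or share their start region with a neighbouring gene. Each is the sequence upstream of the start site in RefSeq (GRCh38.p14), read along the gene's strand: 250 bases for HDAC6 (chrX:48801148-48801397, plus strand, the window next to the annotated gene start, 1 of 3 start sites listed), HDAC8 (chrX:72572844-72573093, minus strand) and SIRT1 (chr10:67884406-67884655, plus strand). For SIRT3 (chr11:236932-236975, minus strand) and SIRT2 (chr19:38899619-38899665, minus strand) it is the whole gap to the gene on the other strand, 44 bases to PSMD13 and 47 bases to NFKBIB. Capitals mark a GC box (GGGCGG or CCGCCC) or an ETS motif (CCGGAAGT or ACTTCCGG), searched on both strands.
HDAC6: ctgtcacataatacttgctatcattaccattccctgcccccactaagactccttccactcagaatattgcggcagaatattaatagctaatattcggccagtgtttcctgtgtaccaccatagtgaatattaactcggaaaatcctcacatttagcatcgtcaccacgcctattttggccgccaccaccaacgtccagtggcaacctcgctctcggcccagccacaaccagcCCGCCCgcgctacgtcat
HDAC8: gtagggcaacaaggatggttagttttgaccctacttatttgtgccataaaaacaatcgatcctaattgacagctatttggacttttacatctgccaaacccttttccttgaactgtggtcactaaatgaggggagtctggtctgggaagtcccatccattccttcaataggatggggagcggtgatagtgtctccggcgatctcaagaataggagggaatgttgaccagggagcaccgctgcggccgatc
SIRT1: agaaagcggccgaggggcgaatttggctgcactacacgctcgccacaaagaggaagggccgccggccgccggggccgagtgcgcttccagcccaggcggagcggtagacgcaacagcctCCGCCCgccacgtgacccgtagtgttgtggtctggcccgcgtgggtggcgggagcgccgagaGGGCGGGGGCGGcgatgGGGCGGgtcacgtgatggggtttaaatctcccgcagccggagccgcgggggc
SIRT3: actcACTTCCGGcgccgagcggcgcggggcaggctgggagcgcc
SIRT2: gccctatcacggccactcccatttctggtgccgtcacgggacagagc

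In the 250 bases upstream, which for HDAC3, SIRT2, SIRT3 and SIRT6 run on into the neighbouring gene, GC boxes numbered 4 for SIRT1, 4 for SIRT6, 3 for HDAC1 and 1 each for HDAC3 and HDAC6, against a share of 42.6% of 35116 RefSeq start windows holding at least 1. The ETS motif was in the SIRT3 window, and 3.42% of all windows hold it. The core of the heat shock element (GAANNTTC or TTCNNGAA) was in none of the 9 windows and in 11.6% of all windows. HDAC2 and HDAC8 held none of the 5 motifs searched; the other motifs were a CCAAT box (CCAAT or ATTGG, 32.01% of windows; HDAC1, SIRT2 and SIRT6) and the NRF1 core (CGCATGCG, 1.73%; SIRT6). These matches describe letters in a window and were not tested as binding sites. SIRT6 also lies head to head with ANKRD24 (125 bases) and HDAC3 with RELL2 (147 bases), so 4 of the 9 genes share a start region with a neighbour on the other strand.

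HDAC1 was the most abundant eraser mRNA per length in every group. In the authors' FPKM it averaged 80.8 ± 4.6 in NFS1 libraries, 74.4 ± 3.3 in NC, 62.9 ± 0.78 in R-47 and 68.4 ± 3.1 in R-37 (SD, n = 5 each). These FPKM carry no scaling beyond library size, and the order of the groups differed in CPM scaled by TMM. In such CPM HDAC1 averaged 193 in R-37, 182 in NFS1 libraries, 173 in NC and 167 in R-47. It alone held 42.4% of the FPKM summed over the 9 genes in NFS1 libraries, 40.2% in NC, 36.5% in R-47 and 39.9% in R-37. The 4 sirtuins together held 28.4% in NFS1 libraries, 30.3% in NC, 31.5% in R-47 and 26.7% in R-37. HDAC1 stood 4.31 ± 0.45 times above HDAC2, its paralogue in the same complexes, in NFS1 libraries, 4.29 ± 0.27 times in NC, 4.54 ± 0.28 times in R-47 and 4.49 ± 0.49 times in R-37, differences smaller than the spread within groups. The ratio rests on the gene models behind the FPKM, 2501 bases for HDAC1 and 10050 for HDAC2. Before division by length these genes were close, averaging 182 and 171 CPM in NFS1 libraries and 193 and 173 CPM in R-37. Which transcripts the cells made was not tested.

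**Figure D1:**
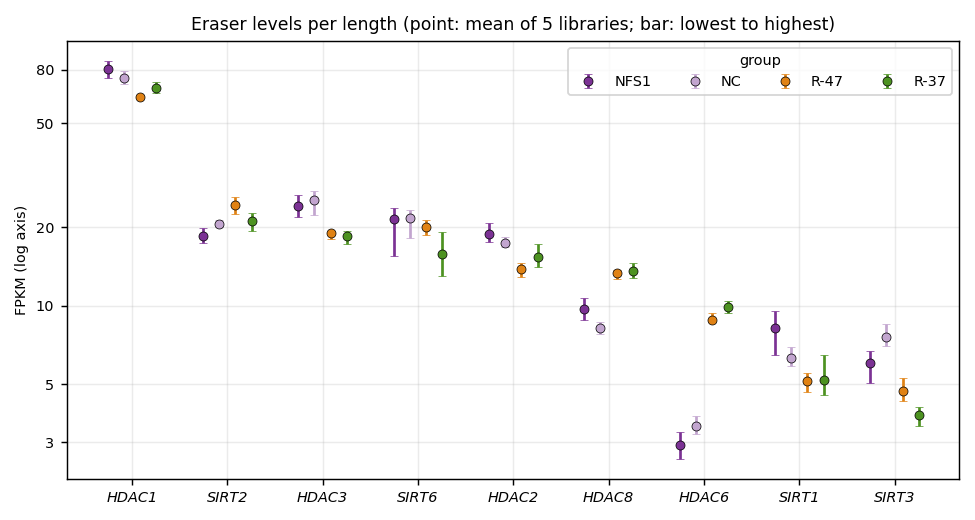
Level per length of the 9 eraser genes (FPKM, log axis) in NFS1, NC, R-47 and R-37 libraries, ordered by their mean in R-37; points are means of 5 libraries and bars run between the lowest and the highest library. HDAC1 lies above all others in each group, and HDAC6 sits near 3 FPKM in NFS1 and NC against about 9 FPKM in R-47 and 9.9 FPKM in R-37.

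Below HDAC1 the order differed between the groups. In NFS1 libraries it ran HDAC3 (24.0 FPKM), SIRT6 (21.5), HDAC2 (18.8), SIRT2 (18.4), HDAC8 (9.69), SIRT1 (8.19), SIRT3 (6.03) and HDAC6 (2.93); neighbours overlapped in library values except at the steps to HDAC3, to HDAC8 and to HDAC6. In NC it ran HDAC3 (25.5 FPKM), SIRT6 (21.7), SIRT2 (20.5), HDAC2 (17.4), HDAC8 (8.25), SIRT3 (7.60), SIRT1 (6.34) and HDAC6 (3.46), with overlap between HDAC3, SIRT6 and SIRT2 and between HDAC8 and SIRT3. In R-47 it ran SIRT2 (24.4 FPKM), SIRT6 (20.02), HDAC3 (19.03), HDAC2 (13.9), HDAC8 (13.3), HDAC6 (8.87), SIRT1 (5.16) and SIRT3 (4.74), with overlap between SIRT6 and HDAC3, HDAC2 and HDAC8, and SIRT1 and SIRT3. SIRT2 thus stood next to HDAC1 in R-47 and R-37, while HDAC3 did in NFS1 and NC. In R-37 it ran SIRT2 (21.0 FPKM), HDAC3 (18.4), SIRT6 (15.8), HDAC2 (15.3), HDAC8 (13.6), HDAC6 (9.90), SIRT1 (5.19) and SIRT3 (3.82), with overlap from HDAC3 through HDAC8. HDAC6 was the lowest of the 9 in NFS1 and NC, and SIRT3 the lowest in R-47 and R-37.

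Heating of wild-type cells, R-47 against R-37, went with small changes: 4 of the 9 genes passed the test (edgeR's quasi-likelihood test, Benjamini-Hochberg adjusted p under 0.05 over 14344 genes), where 25.1% of all tested genes did. HDAC1, HDAC2 and HDAC6 fell, where 13.2% of all tested genes did, and SIRT3 rose, where 11.9% did. None of these 4 moved by more than 1.18-fold. The median log2 fold change of the 9 was -0.08, beside -0.01 for all tested genes. With scaling by library size alone the split turned, to SIRT2, SIRT3 and SIRT6 higher and HDAC6 lower, so the direction that the set leans depends on the scaling, while every called gene kept its sign.

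**Figure D2:**
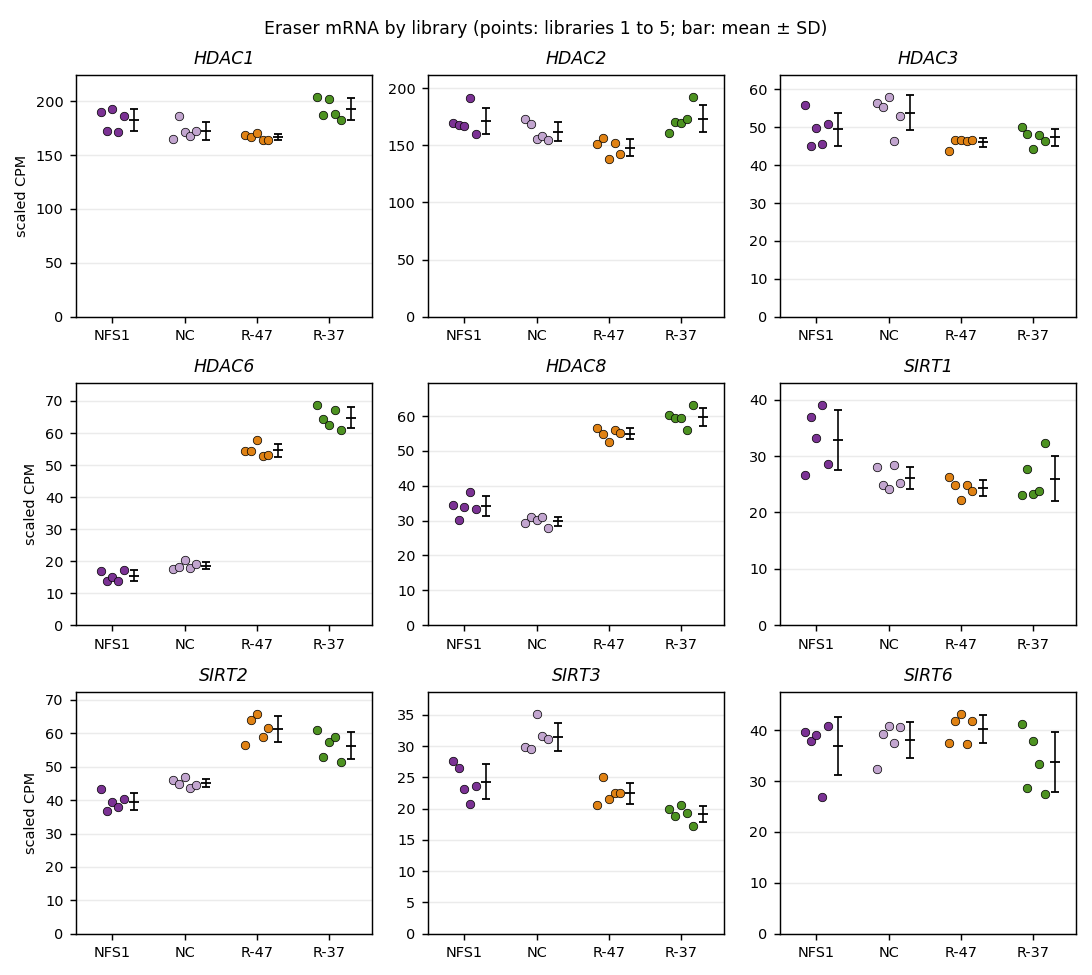
CPM of each eraser gene in every library, scaled by TMM over the 20 libraries, for NFS1, NC, R-47 and R-37; points are libraries 1 to 5 and the bar is the mean ± SD. HDAC6 forms a low pair of groups (13.8 to 20.3 CPM in NFS1 and NC) and a high pair (52.8 to 68.7 CPM in R-47 and R-37); HDAC8 shows the same pairing at a smaller distance.

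Among the class I enzymes, HDAC1 stood at 169, 167, 170, 164 and 164 CPM in R-47 and at 204, 187, 202, 188 and 183 CPM in R-37. All 5 R-47 libraries were below all 5 R-37 libraries, and HDAC1 fell by 0.20 on the log2 scale (SE 0.045, edgeR adjusted p = 0.0052). HDAC2 stood at 151, 156, 138, 152 and 142 CPM in R-47 and at 161, 171, 170, 173 and 193 CPM in R-37. Here too the groups did not overlap, and HDAC2 fell by 0.22 (SE 0.055, edgeR adjusted p = 0.0095). With offsets for gene length and GC content HDAC2 was at -0.06 and not called (edgeR adjusted p = 0.23); it has the longest model of the 9 (10050 bases) and the lowest GC content (38.2%). HDAC3 (43.7 to 46.6 CPM in R-47, 44.3 to 50.1 CPM in R-37) and HDAC8 (52.4 to 56.6 CPM in R-47, 56.1 to 63.1 CPM in R-37) overlapped between the groups and were not called.

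HDAC6, the tubulin deacetylase, stood at 54.4, 54.5, 57.9, 52.8 and 53.2 CPM in R-47 and at 68.7, 64.5, 62.6, 67.2 and 60.8 CPM in R-37. The highest R-47 library was below the lowest R-37 library, and the fall was 0.24 on the log2 scale (SE 0.051, edgeR adjusted p = 0.0037). HDAC6 was called lower under all 22 alternatives, with log2 differences between -0.26 and -0.14.

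Of the sirtuins, SIRT3 alone passed the test in R-47. SIRT3, the mitochondrial member, stood at 20.6, 25.1, 21.6, 22.5 and 22.5 CPM in R-47 and at 20.01, 18.8, 20.6, 19.4 and 17.3 CPM in R-37. The groups met at 20.6 CPM, and SIRT3 rose by 0.24 (SE 0.071, edgeR adjusted p = 0.024); without R-47 library 2 or 5 it was not called (edgeR adjusted p = 0.074 and 0.052). SIRT6, a nuclear sirtuin, stood at 37.5, 41.7, 43.3, 37.2 and 41.8 CPM in R-47 and at 41.3, 28.7, 38.0, 33.4 and 27.5 CPM in R-37. Its log2 difference of 0.27 (SE 0.098) just missed the threshold (edgeR adjusted p = 0.059). SIRT6 was called higher under 10 of the 22 alternatives, and its log2 differences over all 22 lay between 0.12 and 0.36. Among these 10 were the fits without R-37 library 1 (edgeR adjusted p = 0.0058) or 3 (edgeR adjusted p = 0.033) and DESeq2 (adjusted p = 0.034). SIRT2 (56.4 to 65.9 CPM in R-47, 51.3 to 61.0 CPM in R-37; log2 0.13) and SIRT1 (22.2 to 26.2 CPM in R-47, 23.02 to 32.3 CPM in R-37; log2 -0.08) were not called.

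Between the libraries labelled NFS1 and NC, both heated, 5 of the 9 genes passed the test, where 28.1% of 15086 tested genes did. SIRT1 and HDAC8 rose, where 15.7% of all tested genes did, and SIRT3, HDAC6 and SIRT2 fell, where 12.5% did. The median log2 fold change of the 9 was -0.03, beside 0.02 for all tested genes. Only SIRT3 was called under all 24 alternatives; without NFS1 libraries 2 and 3, which held the most HSPA6 (248 and 244 CPM, against 22.3 to 82.6 CPM in the other NFS1 libraries and 5.41 to 38.9 CPM in NC), 2 of the 9 were called, HDAC8 higher and SIRT3 lower. What part the heat shock level had in the other calls was not tested.

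**Figure D3:**
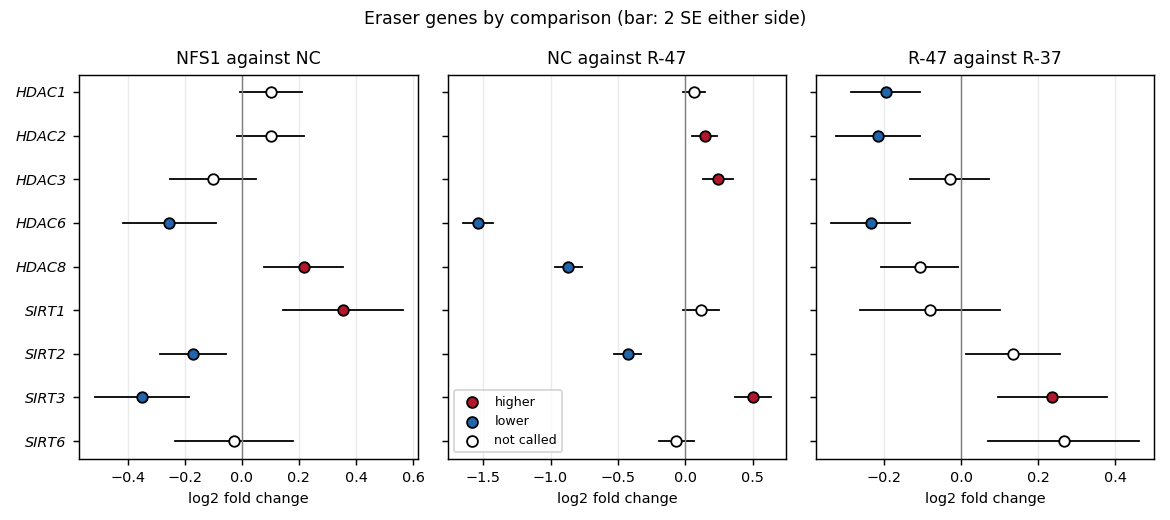
Log2 fold changes of the 9 eraser genes for NFS1 against NC, NC against R-47 and R-47 against R-37, from edgeR; bars run 2 SE either side, and points are red where called higher, blue where called lower and white where not called. The horizontal scales differ: only NC against R-47 holds a value beyond 1, HDAC6 at -1.54.

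SIRT3 stood at 27.6, 26.6, 23.1, 20.8 and 23.6 CPM in NFS1 libraries and at 29.9, 29.5, 35.2, 31.6 and 31.2 CPM in NC. Every NFS1 library was below every NC library, and SIRT3 fell by 0.35 on the log2 scale (SE 0.083, edgeR adjusted p = 0.0062). The values over the alternatives lay between -0.40 and -0.29. SIRT1, the nuclear sirtuin that deacetylates p53 and histones, stood at 26.7, 37.0, 33.2, 39.1 and 28.6 CPM in NFS1 libraries and at 28.0, 24.9, 24.2, 28.4 and 25.2 CPM in NC. NFS1 libraries 2, 3 and 4 were well above all of NC, library 5 just above it and library 1 inside its range, and SIRT1 rose by 0.35 (SE 0.10, edgeR adjusted p = 0.021). Per length, SIRT1 was 1.38 ± 0.34 times SIRT3 in NFS1 libraries and 0.84 ± 0.096 times SIRT3 in NC (SD, n = 5 each). SIRT1 lost its call without NFS1 library 2 or without NC library 2, 3 or 5 (edgeR adjusted p between 0.050 and 0.068) and without NFS1 libraries 2 and 3 together (0.14).

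SIRT2 stood at 43.4, 36.8, 39.4, 37.9 and 40.2 CPM in NFS1 libraries and at 46.1, 44.7, 46.9, 43.7 and 44.4 CPM in NC. The groups did not overlap but lay close, and SIRT2 fell by 0.17 (SE 0.058, edgeR adjusted p = 0.040); it was called in 2 of the 10 fits that each left out 1 library, and stood at -0.06 with length and GC offsets (edgeR adjusted p = 0.39). SIRT6 was not called (log2 -0.03, edgeR adjusted p = 0.87), with 37.9 to 40.8 CPM in 4 NFS1 libraries, 26.9 CPM in NFS1 library 4, and 32.4 to 40.9 CPM in NC.

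Among the deacetylases, HDAC6 stood at 17.1, 13.8, 15.0, 13.8 and 17.3 CPM in NFS1 libraries and at 17.5, 18.3, 20.3, 17.9 and 19.1 CPM in NC. The groups did not overlap, the gap being 17.3 to 17.5 CPM, and HDAC6 fell by 0.25 (SE 0.082, edgeR adjusted p = 0.032). HDAC8 stood at 34.6, 30.3, 34.04, 38.3 and 33.4 CPM in NFS1 libraries and at 29.3, 30.9, 30.1, 30.9 and 27.8 CPM in NC. NFS1 library 2 lay inside the NC range and the other 4 above it, and HDAC8 rose by 0.22 (SE 0.069, edgeR adjusted p = 0.031). Each kept its call in 5 of the 10 fits that left out 1 library: HDAC6 lost it without NFS1 library 2 or 3 or NC library 2, 3 or 5, and HDAC8 without NFS1 library 1 or 3 or NC library 1, 3 or 5. HDAC1 (171 to 193 CPM in NFS1 libraries, 165 to 187 CPM in NC), HDAC2 (160 to 191 CPM, against 155 to 173 CPM in NC) and HDAC3 (45.1 to 55.9 CPM, against 46.3 to 58.1 CPM in NC) overlapped and were not called.

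NC and R-47 carry the same labels for line, genotype and heat, and comparing them shows how far like-labelled groups stood apart. They differed at 79.7% of 15080 tested genes, 4106 of them by more than 2-fold, and what separates these libraries beyond their group names cannot be told apart from the labels. Of the erasers 6 of 9 were called: HDAC2, HDAC3 and SIRT3 rose, where 40.1% of all tested genes did, and HDAC6, HDAC8 and SIRT2 fell, where 39.6% did. HDAC6 averaged 18.6 ± 1.1 CPM in NC and 54.6 ± 2.0 CPM in R-47 (SD, n = 5 each), 2.90-fold lower in NC, a log2 difference of -1.54 (SE 0.056, edgeR adjusted p = 1.8e-16). HDAC8 averaged 29.8 ± 1.3 CPM in NC and 54.9 ± 1.6 CPM in R-47, a log2 difference of -0.87 (SE 0.050, edgeR adjusted p = 6.5e-13). For both genes every NC library lay far below every R-47 library. The median log2 fold change of the 9 genes was 0.06, beside 0.01 for all tested genes.

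SIRT2 averaged 45.2 ± 1.3 CPM in NC and 61.3 ± 3.8 CPM in R-47 (SD, n = 5 each; log2 -0.43, SE 0.051, edgeR adjusted p = 1.1e-07), and SIRT3 31.5 ± 2.3 CPM in NC and 22.5 ± 1.7 CPM in R-47 (log2 0.50, SE 0.066, edgeR adjusted p = 5.1e-07). Per length, SIRT2 was therefore 2.71 ± 0.17 times SIRT3 in NC and 5.15 ± 0.36 times SIRT3 in R-47. HDAC3 (log2 0.24, edgeR adjusted p = 0.00059) and HDAC2 (log2 0.14, edgeR adjusted p = 0.0074) were higher in NC by less than 1.19-fold. HDAC1, SIRT1 and SIRT6 were not called (log2 0.06, 0.12 and -0.07). Scaling by library size alone moved the median of all genes up by 0.18, and HDAC1 and SIRT1 were then called higher. HDAC1 stood 21.6 ± 1.5 times above HDAC6 per length in NC and 7.10 ± 0.16 times in R-47. Since NC and R-47 each serve in another comparison, these values share libraries with those above.

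HDAC6 and HDAC8 both lie on the X chromosome, and the genes around HDAC6 moved with it. Between NC and R-47, 32 other tested genes lay within 1 Mb of HDAC6; 27 were lower in NC and 0 higher, with a median log2 fold change of -1.28. Over the whole X chromosome the median was -0.47 and 62.7% of 488 other tested genes were lower in NC, and 14.5% of them had a lower log2 fold change than HDAC6. Within 1 Mb of HDAC8, 7 of 12 genes were lower and 3 higher (median -0.47). For the other members the median within 1 Mb in this comparison lay between -0.28 and 0.25, except HDAC2, with 3 tested neighbours.

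SIRT1 lies on chromosome 10, where 66.3% of 564 other tested genes were higher in NFS1 libraries than in NC, with a median log2 fold change of 0.48. Of the 12 genes within 1 Mb of SIRT1, 10 were higher and 0 lower (median 0.45), and SIRT1's 0.35 was above 36.3% of the chromosome's genes. HDAC8 went the other way from its chromosome: the X chromosome's median was -0.20 between NFS1 libraries and NC, and HDAC8 at 0.22 was above 84.3% of its genes. HDAC6, at -0.25, was above 44.9% of the X chromosome's genes, of which 37.6% were called lower. The 30 genes within 1 Mb of HDAC6 had a median of -0.08. SIRT2, on chromosome 19, was at -0.17, where its chromosome's median was -0.07. The 40 genes within 1 Mb of SIRT2 had a median of -0.17, and 13 were called lower. SIRT3, on chromosome 11, fell by 0.35 where its chromosome's median was -0.13 and that of 41 genes within 1 Mb was -0.05. In the heat comparison the medians within 1 Mb lay between -0.12 and 0.16 for 8 of the 9 members, HDAC2 again having too few neighbours.

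**Figure D4:**
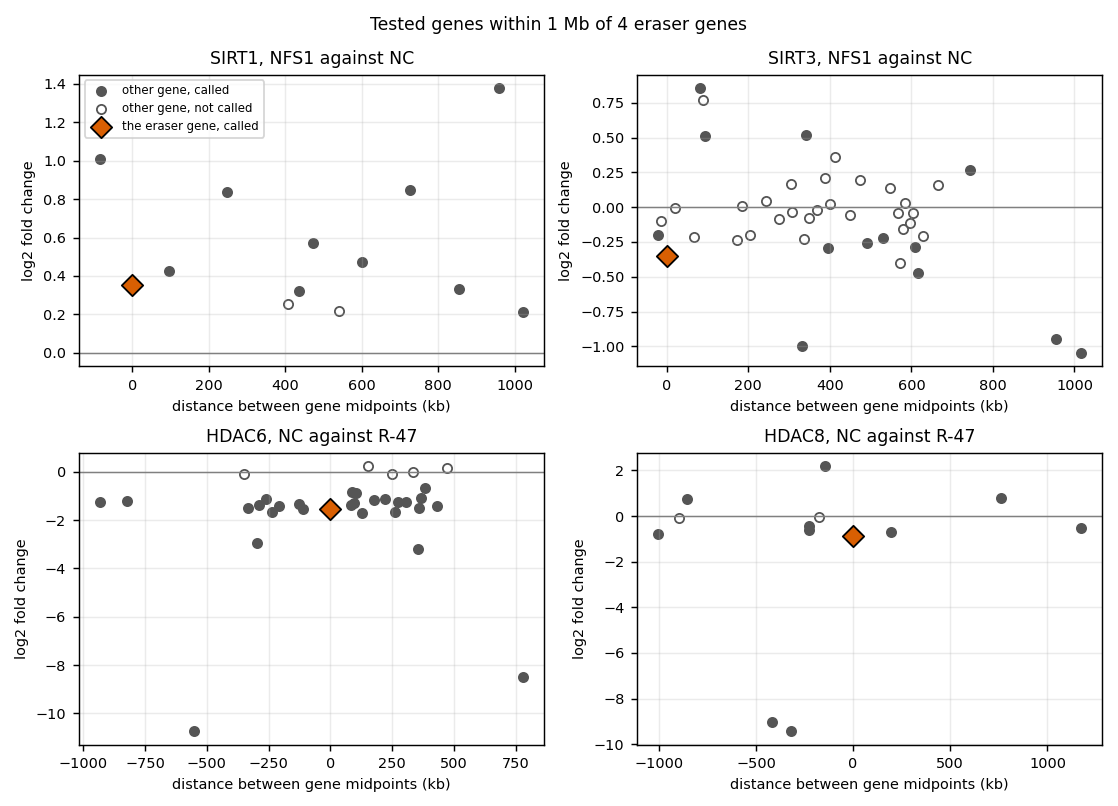
Log2 fold change of every tested gene within 1 Mb of SIRT1 and SIRT3 (NFS1 against NC, top) and of HDAC6 and HDAC8 (NC against R-47, bottom), by distance between gene midpoints in kb; the diamond is the eraser gene, filled circles were called and open circles not. The genes around SIRT1 lie above 0 and those around HDAC6 mostly between -1 and -2, while those around SIRT3 scatter on both sides of 0.

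Log2 fold changes of the genes that share a start region with an eraser are given beside those of the eraser. PSMD13, a proteasome subunit gene 44 bases from SIRT3, was at 0.04 between R-47 and R-37, at -0.01 between NFS1 libraries and NC, and at 0.25 between NC and R-47, against 0.24, -0.35 and 0.50 for SIRT3; only the last of these was called for PSMD13 (edgeR adjusted p = 1.2e-05). NFKBIB, an NF-kB inhibitor gene 47 bases from SIRT2, was at 0.13 between R-47 and R-37, as SIRT2 was, neither being called. It was called lower in NFS1 libraries than in NC (log2 -0.37, edgeR adjusted p = 0.0047), as SIRT2 was, but higher in NC than in R-47 (0.81, edgeR adjusted p = 3.9e-11), where SIRT2 was lower. RELL2, beside HDAC3, was at -0.05 between R-47 and R-37, where HDAC3 was at -0.03, neither being called. It was called lower in NFS1 libraries than in NC (-0.51, edgeR adjusted p = 0.00096) and higher in NC than in R-47 (0.88, edgeR adjusted p = 5.9e-09); HDAC3 was called only in the second, also higher. ANKRD24, beside SIRT6, was called higher in R-47 than in R-37 (0.65, edgeR adjusted p = 0.0010) and lower in NC than in R-47 (-0.43, edgeR adjusted p = 0.0016); between NFS1 libraries and NC it was at 0.18 and SIRT6 at -0.03, neither being called. SIRT3 overlaps RIC8A in the annotation and HDAC2 overlaps the antisense gene HDAC2-AS2; since the strand setting of the counting is not given in the sources used here, reads in the shared stretches may be assigned to either gene or dropped.

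HDAC6, HDAC8 and SIRT3 varied most over the 20 libraries (root mean square of log2 CPM about their own mean 0.92, 0.44 and 0.28; HDAC1 varied least, 0.098). By the root mean square difference between centred log2 CPM profiles over 20 libraries, among 10285 genes, the genes most like HDAC6 were ARAF (0.10), PYGB (0.10) and MAGED1 (0.12); ARAF and MAGED1 are also on the X chromosome, PYGB on chromosome 20. Most like HDAC8 were USP7 (0.071), AGBL5 (0.076) and LIX1L (0.077). Most like SIRT3 were CREB3 (0.091), RHBDD3 (0.092) and DOK4 (0.093). None of the last 6 lies on the chromosome of its eraser.

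The genes around the erasers in their complexes and cofactor supply were followed as 8 lists with 70 genes, of which 66 were tested in each comparison. In R-47 against R-37, 8 rose and 12 fell, 30.3% beside the 25.1% of all tested genes, with a median log2 fold change of 0.03. This split depends on the scaling: it was 19 higher and 4 lower with scaling by library size alone, and 16 higher and 10 lower with length and GC offsets. In each comparison fewer list genes were tested with these offsets, which needed a GC value and a mean log2 CPM above 0. The largest group that fell was NuRD, the remodelling complex that carries HDAC1 and HDAC2: 6 of its 11 genes fell, among them CHD3 (log2 -0.39) and CHD4 (-0.27), its ATPases, and 1 rose, GATAD2A (0.18). With scaling by library size alone the NuRD count was 2 higher and 2 lower, so that lean depends on the scaling. In the CoREST and MiDAC list 3 of 7 fell, including the demethylase KDM1A (-0.17) and PHF21A (-0.27), and DNTTIP1 rose (0.28); with library size alone the count was 3 higher and 0 lower. Of the SIN3 list SUDS3 fell (-0.22) and BRMS1 rose (0.27), and of the HDAC3 complex list TBL1X fell (-0.36). The other erasers held 3 that rose, HDAC9 (0.33), HDAC10 (0.28) and HDAC5 (0.25), and none that fell. In the NAD list NAPRT, which makes NAD from nicotinic acid, rose (0.38), the only call among 11. Of the writers, AARS1, reported as a lactyltransferase, rose (0.16) and KAT2A, an acetyltransferase, fell (-0.16). In the 10 fits that each left out 1 library, KAT2A kept its call in 2, HDAC5 in 5, BRMS1, GATAD2A and AARS1 in 7 each, and HDAC10 in 9. None of the 3 SIRT1 regulators was called with TMM scaling, while 1 was called higher with library size alone and 1 lower with length and GC offsets.

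In NFS1 libraries against NC, 17 of the 66 rose and 7 fell, 36.4% beside the 28.1% of all tested genes, with a median log2 fold change of 0.05. With length and GC offsets 18 were higher and 15 lower, the NAD list then having 3 higher and 4 lower and the NuRD list 2 higher and 3 lower. Without NFS1 libraries 2 and 3 several lists held fewer calls. The NAD list then had 2 higher and 1 lower, SIN3 1 and 1, and NuRD 1 and 0. The writers had 1 higher and 2 lower, and the other erasers 3 and 0. The class II enzyme HDAC4 had the largest change among the other erasers, 39.2 ± 2.7 CPM in NFS1 libraries and 22.2 ± 1.3 CPM in NC (SD, n = 5 each; log2 0.84, edgeR adjusted p = 1.2e-06); HDAC9 (0.42) and HDAC5 (0.37) rose and HDAC10 fell (-0.26). Of the HDAC3 complex list, TBL1XR1 (0.46) and TBL1X (0.33) rose and GPS2 fell (-0.24). The SIN3 list held 2 that rose, ARID4B (0.33) and SUDS3 (0.22), and 1 that fell, BRMS1 (-0.37). The NuRD list held 2 that rose, GATAD2B (0.33) and CHD3 (0.17), and the CoREST and MiDAC list 1, PHF21A (0.31). In the NAD list 4 rose and 1 fell: NNMT, which methylates nicotinamide (1.73, though at no more than 1.93 CPM in NFS1 libraries and 0.56 CPM in NC), NMNAT1 (0.33) and 2 others rose, and NADSYN1, the last enzyme from nicotinic acid to NAD, fell (-0.48). Of the writers, KAT2B (0.56) and CREBBP (0.16) rose, and AARS2 (-0.32), KAT2A (-0.21) and 1 other fell. Of the genes named here, ARID4B, CHD3 and CREBBP each kept their call in 3 of the 10 fits that left out 1 library, HDAC10 in 5 and SUDS3 in 9.

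In NC against R-47, 25 of the 66 rose and 24 fell, 74.2% beside the 79.7% of all tested genes, with a median of 0.08. That even split became 42 higher and 18 lower with library size alone and 40 higher and 16 lower with length and GC offsets. The fit with offsets tested fewer of the list genes. In the NAD list 4 of 11 genes were called in each direction, against 8 higher and 3 lower with library size alone. NAMPT, the rate-limiting enzyme of NAD salvage, averaged 480.4 CPM in NC and 1166 CPM in R-47 (log2 -1.27, edgeR adjusted p = 6.7e-16), and QPRT, which makes NAD from tryptophan breakdown, 0.72 CPM in NC and 46.2 CPM in R-47 (log2 -5.98, edgeR adjusted p = 7.0e-20). PARP2 (0.71), an enzyme that consumes NAD, and SLC25A51 (0.61), the mitochondrial NAD carrier, rose. SIRT7 (-0.78), HDAC4 (-0.66), HDAC5 (-0.59), HDAC7 (-0.49) and HDAC11 (-0.26) fell among the other erasers, and HDAC10 (0.65) and SIRT4 (1.36, at 1.33 CPM in NC and 0.52 CPM in R-47) rose. HDAC11 lost its call in 5 of 22 alternatives, with log2 differences between -0.30 and -0.07 over all 22. With library size alone the other erasers had 3 higher and 4 lower. All 3 SIRT1 regulators rose, where 40.1% of all tested genes did. They were RPS19BP1 (0.83), HIC1 (0.99) and CCAR2 (0.31), a SIRT1 inhibitor, while SIRT1 itself was not called. HIC1 was low, at 2.99 CPM in NC and 1.52 CPM in R-47, and its groups overlapped. In the HDAC3 complex list TBL1X fell (-0.35) and GPS2 rose (0.51). The SIN3 list had 6 higher, with ING2 (0.99) and BRMS1 (0.69), and 3 lower, with SUDS3 (-0.77) and SAP30 (-0.44). NuRD had 2 higher, RBBP4 (0.29) and CHD3 (0.21), and 4 lower, with GATAD2B (-0.78) and MTA1 (-0.55), but 7 higher and 2 lower with scaling by library size alone. The CoREST and MiDAC list had 4 higher, with MIDEAS (0.50) and RCOR1 (0.36), and 2 lower, HMG20B (-0.27) and DNTTIP1 (-0.18). With that scaling this list had 5 higher and 0 lower, and DNTTIP1 was at 0.0013. HMG20B lost its call in 4 of 22 alternatives. Among the writers 3 were higher, with AARS2 (0.34) and EP300 (0.28), and 4 lower, with AARS1 (-0.53) and CREBBP (-0.44), against 6 higher and 4 lower with library size alone and 6 higher and 2 lower with length and GC offsets.

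**Figure D5:**
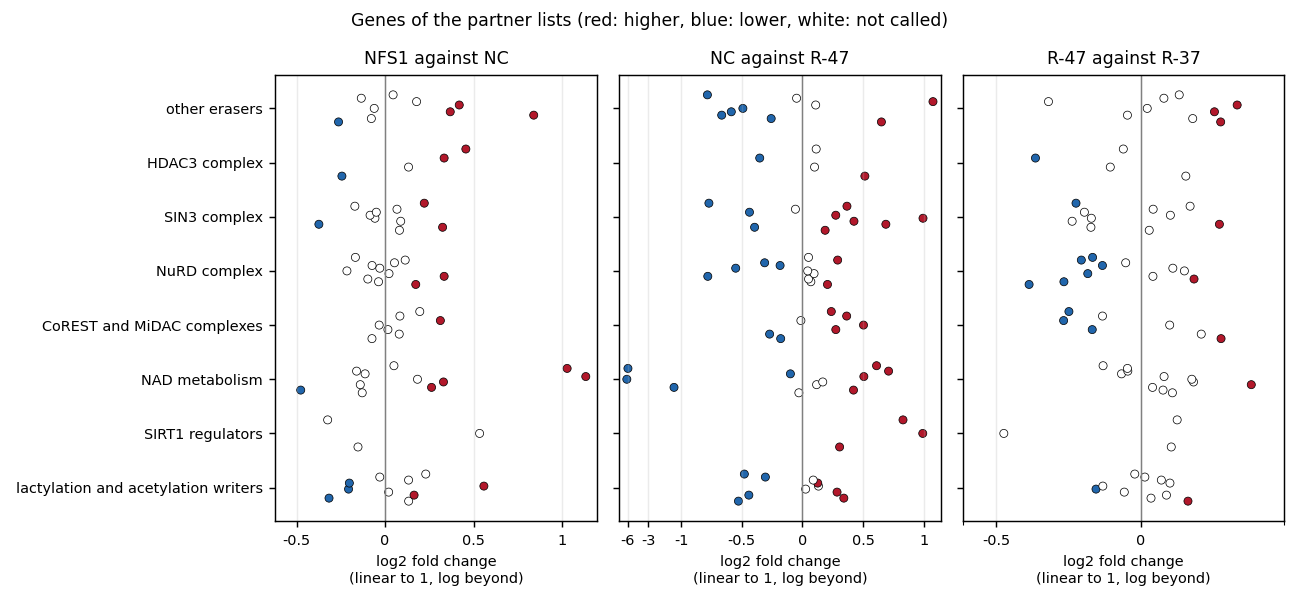
Log2 fold changes of genes of 8 partner lists for NFS1 against NC, NC against R-47 and R-47 against R-37; each point is a gene, red where called higher, blue where called lower and white where not called, on an axis that is linear to 1 and logarithmic beyond. NC against R-47 holds calls in both directions in 7 of the 8 lists, and the 2 points near -6 in its NAD row are QPRT and NMNAT2.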

How the data were processed

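The authors deposited counts per gene and FPKM in separate tables, each with 26038 symbols and 20 libraries. The tools were HISAT2, HTSeq and fastp and the build hg38, per the submitters' processing notes; tool versions, gene annotation and strandedness of counting were not given in the sources used here. Deposited FPKM values equal the count over gene length and library total, so they carry no scaling beyond library size. Per the labels' protocols, polyA RNA was prepared with TRIzol and a VAHTS Universal V6 kit.

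Samples were grouped by title. Each comparison used its 10 libraries: filterByExpr (minimum count of 10, total of 15), TMM and edgeR 4.0.16's quasi-likelihood test in R 4.3.3, with Benjamini-Hochberg adjustment at 0.05 over all tested genes. SE is the log2 fold change over the root of F. CPM per library were scaled by TMM over the 20 libraries; levels between genes use FPKM. Library totals of 32219946 to 39689939 counts leave each eraser with 543 counts or more per library. The scripts were tested on simulated data. Positions, start windows and neighbours come from RefSeq (GRCh38.p14), which gave a place to 24429 symbols; GC content was computed from the supplied GRCh38 transcripts.

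Alternatives were other scalings and filters, DESeq2 1.42.0, limma 3.58.1 with voom or on log2(FPKM + pseudocount of 1 or 0.1), 1 fit of all 20 libraries, a replicate block and leaving out each library; length and GC offsets and leaving out 2 libraries together were added after seeing the data. The 9 members and the gene lists were chosen with earlier results of these data known. Named genes are the 9 members, the called genes of the HDAC3 complex, SIRT1 regulator and other eraser lists (1 gene is not reported here), and from each other list the 2 called genes of smallest adjusted p per direction; for patterns, the 3 most variable members and their 3 nearest genes. NMNAT2 was named after its value was seen.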

Additional observations from a re-analysis of the deposited data

Results flagged for a closer look

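In 3 of the 36 member and group combinations, 1 library stood apart from the other 4 by more than Dixon's 95% limit, and chance alone puts about 1 in 20 there. HDAC2 in NFS1 library 4 was the highest of its group at 191 CPM, with the others at 160 to 169 CPM. SIRT6 in the same library was the lowest of its group at 26.9 CPM, with the others at 37.9 to 40.8 CPM. In that library the deviations of genes from their mean over all 20 libraries correlated with GC content (Spearman's rho -0.51). The genes used had mean log2 CPM above 0 and are not independent of each other. This value was the farthest from 0 among the 20 libraries, and the other NFS1 libraries lay between -0.037 and 0.21. Such deviations also hold differences between groups. SIRT6 has the highest GC content of the 9 genes (64.9%) and HDAC2 the lowest (38.2%). Their part in the outlying values was not tested. HDAC3 in R-47 library 1 was the lowest of its group at 43.7 CPM, with the others between 46.4 and 46.6 CPM, a narrow range.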

How the results depend on the processing

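Of 612 alternative values of the 9 genes, 521 kept direction and side of the threshold, 44 lost a call, 28 gained one and 19 changed sign, all of genes that were not called. Between NFS1 libraries and NC the 5 erasers called were 3 without a filter, 3 by limma on log2(FPKM + 1) without a filter, 2 with the replicate block, 2 without NFS1 libraries 2 and 3, and 1 to 5 with 1 library left out; without NFS1 libraries 2 and 3 all genes called numbered 2769, beside 4245. Pathway list genes called in R-47 against R-37 were 11 to 21 with 1 library left out, beside 20. By scaling on library size alone, 74.6% of calls in R-47 against R-37 and 61.2% in NC against R-47 were higher, beside 47.6% and 50.3%. Same-numbered libraries correlated between -0.50 and 0.38 in their deviations from the group mean. Such correlations cannot tell whether the numbers pair the samples, and the labels do not say what the numbers mark. With the replicate block the eraser calls were 3 for R-47 against R-37, where SIRT3 had an edgeR adjusted p = 0.059, 2 for NFS1 libraries against NC and 6 for NC against R-47.

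Sign changes, each of a gene not called in either fit unless stated, were as follows. In R-47 against R-37, HDAC3 was at 0.047 by library size alone and at 0.045, 0.047 and 0.045 in the FPKM fits (pseudocount 1, pseudocount 0.1, no filter); SIRT1 was at 0.0029, 0.0050 and 0.0029 in these, at 0.055 with length and GC offsets and between -0.12 and 0.017 with 1 library left out; HDAC8 was at 0.012 with the offsets. In NFS1 libraries against NC, HDAC2 was at -0.069 and SIRT6 at 0.077 with the offsets, SIRT6 at 0.011 without NC library 1 and NFS1 library 4, and between -0.084 and 0.067 with 1 library left out. In NC against R-47, SIRT6 was at 0.11 by library size alone, at 0.11, 0.11 and 0.11 in the FPKM fits and at 0.0097 with the offsets, and DNTTIP1, called lower, was at 0.0013 by library size alone and at 0.00085, 0.00087 and 0.00085 in the FPKM fits. The cause was not tested.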
